A study of Homo sapiens and Mus musculus with 36 samples.

Results

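The genes described here encode enzymes of cholesterol and fatty acid synthesis and the proteins that regulate them, a list of 30 genes chosen by name. Each gene was read from 1 probe set of an Affymetrix expression array, the brightest, by its mean on that platform, of those with a single gene symbol. In HepaRG cells 27 of the 30 were measured, out of 19775 genes tested. FDFT1, CYP51A1 and FADS1 had no probe set of 1 symbol there. In mouse liver 29 of the 30 were measured, out of 18193 genes, and Acat2 was not. The list falls into 18 sterol enzymes (7 of the mevalonate part and 11 from squalene on), 4 regulators and carriers and 8 fatty acid enzymes, of which 16, 4 and 7 were measured in HepaRG cells and 17, 4 and 8 in mouse.

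HepaRG is a human hepatoma line, thawed here as differentiated cells, which in culture holds hepatocyte-like and biliary-like cells. Cultures in 8 groups of 3 received, for 72 hours, vehicle alone (control), a bile acid mixture concentrated 50 times (mix), atazanavir (an HIV protease inhibitor) at 60 µM, cyclosporin A (an immunosuppressant) at 20 µM, nefazodone (an antidepressant) at 30 µM, or 1 of these drugs with the mix. All 3 drugs can cause cholestasis, the impaired flow of bile, and the series text places the cultures in 3 batches of cells, all of 1 line. The other samples were livers of Sv129 mice taken 6 weeks after surgery, 6 with the common bile duct ligated (CBDL) and 6 sham-operated, in which the duct was only exposed. The labels give no age for the mice. Values are log2 RNA levels as deposited, so a difference of 1 is a factor of 2, and every ± beside a log2 change is its standard error. The series title names an adverse outcome pathway for cholestatic injury, and the comparisons ask how these genes differed with bile acids, with the drugs, with both, and after obstruction.

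Cholesterol is built from acetyl-CoA through mevalonate, isoprenoid phosphates, squalene and lanosterol, and the same acetyl-CoA feeds fatty acid synthesis through malonyl-CoA. Transcription of both branches is driven by the membrane-bound factors SREBP-2 (from SREBF2), which acts mainly on sterol genes, and SREBP-1c (from SREBF1), which acts mainly on fatty acid genes and is itself induced by insulin and by the sterol sensor LXR. When sterols are plentiful, INSIG proteins hold the SREBP escort SCAP in the endoplasmic reticulum and the factors stay inactive. In hepatocytes cholesterol is also the substrate for bile acids.

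The labels were checked against marker genes listed for hepatocytes and for other cells. The 10 hepatocyte markers (among them albumin and transthyretin) were all above the dim range in control cultures, where the dim range means the lowest 1 in 3 of genes, up to log2 4.27 in HepaRG and 5.40 in mouse. Their mean log2 level per culture ran from 12.67 to 13.00 in control, 11.82 to 12.35 with the mix, 9.49 to 9.99 with atazanavir, 10.75 to 11.24 with atazanavir and mix, 10.46 to 11.50 with cyclosporin A, 8.11 to 8.67 with cyclosporin A and mix, 10.41 to 11.06 with nefazodone and 10.32 to 10.89 with nefazodone and mix. Hepatocyte markers thus moved with the drug groups, and their part in the member results was not tested. In bulk RNA, fewer cells of a type and less RNA per cell cannot be told apart. Biliary markers (7 genes) moved as well, and less in their mean. Their mean per culture ran from 6.94 to 7.06 in control, 7.14 to 7.20 with the mix, 6.75 to 6.84 with atazanavir, 7.25 to 7.40 with atazanavir and mix, 6.87 to 7.02 with cyclosporin A, 6.22 to 6.25 with cyclosporin A and mix, 7.10 to 7.15 with nefazodone and 6.99 to 7.11 with nefazodone and mix. Against control 1 of the 7 rose with the mix, 2 fell with atazanavir, and 4 rose and 2 fell with cyclosporin A and again with nefazodone. On adding the mix 5 rose and none fell with atazanavir, 1 rose and 3 fell with cyclosporin A and 1 rose and 2 fell with nefazodone. Over all genes the shares higher and lower were 6.78% and 3.37% with the mix and 22.2% and 13.2% with atazanavir. They were 22.2% and 18.5% with cyclosporin A and 25% and 20.6% with nefazodone. On adding the mix they were 8.95% and 10.3%, 18.4% and 18.4%, and 7.55% and 7.92%, in that drug order. The biliary means pool genes that rose and fell. The highest mean of a single biliary marker was 11.96 in control and 8.73 with cyclosporin A and mix. The 6 measured genes of the neutrophil list had means of 5.38 to 5.47 in control and mix cultures, 4.53 to 5.40 in those with atazanavir and 3.65 to 4.40 in those with cyclosporin A or nefazodone. Means over the macrophage, intestinal, pancreatic acinar and adipocyte lists lay between 3.22 and 4.83 in every culture. The part of these lists in the member results was not tested either. In mouse the mean of the 8 measured hepatocyte markers ran from 14.60 to 14.65 in ligated livers and from 14.52 to 14.58 in sham livers, with no overlap. Of the 8, 2 were called higher, near the 20.5% of all genes. These levels lie near the highest value on the mouse arrays (15.30). Ligated liver 1 and sham liver 2 stood apart in markers of other cells, with values given beside the mouse results. No member had a group mean in the dim range in either organism.

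Promoters are shown first, as the regulatory sequence in front of the members, which the choice of the list did not use. RefSeq promoters (build GRCh38.p14, the 250 bases before each annotated start) were available for 26 of the 30 human members. The box CCAAT, searched on both strands and so also as ATTGG, was present in 20 of these 26 genes, 76.9%, against 39.7% of the 15384 measured genes with a promoter and 37.0% of all 27305. Among sterol enzymes with a promoter it was in 5 of 6 of the mevalonate part and in 8 of 9 from squalene on, and among fatty acid enzymes in 4 of 7. In the stretches below, 5′ to 3′ on the strand of the gene, capitals mark matches to this box on either strand and to the sterol regulatory element described after them.
HMGCS1, chr5:43313503-43313572, minus strand: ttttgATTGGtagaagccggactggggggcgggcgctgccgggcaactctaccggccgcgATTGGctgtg
FDPS, chr1:155308736-155308825, plus strand: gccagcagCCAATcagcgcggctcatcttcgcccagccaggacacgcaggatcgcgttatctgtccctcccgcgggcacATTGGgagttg
MVD, chr16:88663167-88663256, minus strand: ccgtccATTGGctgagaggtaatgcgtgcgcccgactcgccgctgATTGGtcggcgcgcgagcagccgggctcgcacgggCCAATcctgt
SCD, chr10:100346998-100347057, plus strand: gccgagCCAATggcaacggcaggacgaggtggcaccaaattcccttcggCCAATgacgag
SREBF2, chr22:41832965-41833010, plus strand: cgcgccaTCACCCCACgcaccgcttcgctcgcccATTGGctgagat
The first 3 are sterol enzymes that fell with the mix and rose with nefazodone (below), and SCD is a fatty acid desaturase that fell with atazanavir. The box was also in MVK, not called with the mix or nefazodone, and in TM7SF2, LSS and NSDHL, which fell with nefazodone. SREBF2 alone of the 26 members held, in this window, the string TCACNCCAC, used here for the sterol regulatory element and searched on both strands. It was carried by 1.14% of measured genes. Strings that differ from it were not searched, so a member without it may still hold such an element. FDFT1, SQLE, ACAT2 and FASN had no promoter to search. A match is a run of letters and no measured binding.

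Across the 8 HepaRG groups the members spread widely, and the lowest and highest groups recurred. Cyclosporin A with the mix gave the lowest group mean for 12 of 16 sterol enzymes and for 6 of 7 fatty acid enzymes. Nefazodone without the mix gave the highest for 9 of 16 sterol enzymes. The share of all genes with their lowest or highest mean in these groups was not counted. These counts therefore describe the members and do not set them apart from other genes. The hepatocyte markers also had their lowest mean with cyclosporin A and mix (8.11 to 8.67 per culture). The distance from the lowest to the highest group mean was 2.97 on the log2 scale for ELOVL6 (which elongates C16 fatty acids), 2.84 for TM7SF2 (a sterol reductase), 2.71 for HMGCS1 and 2.65 for ACAT2, and 0.36 for MVK (mevalonate kinase). HMGCS1, the enzyme that makes HMG-CoA, stood at 10.88, 10.74 and 11.05 in the 3 nefazodone cultures and at 8.15, 8.11 and 8.28 with cyclosporin A and mix, while MVK stayed between 7.55 and 8.05 on all 24 arrays.

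**Figure D1:**
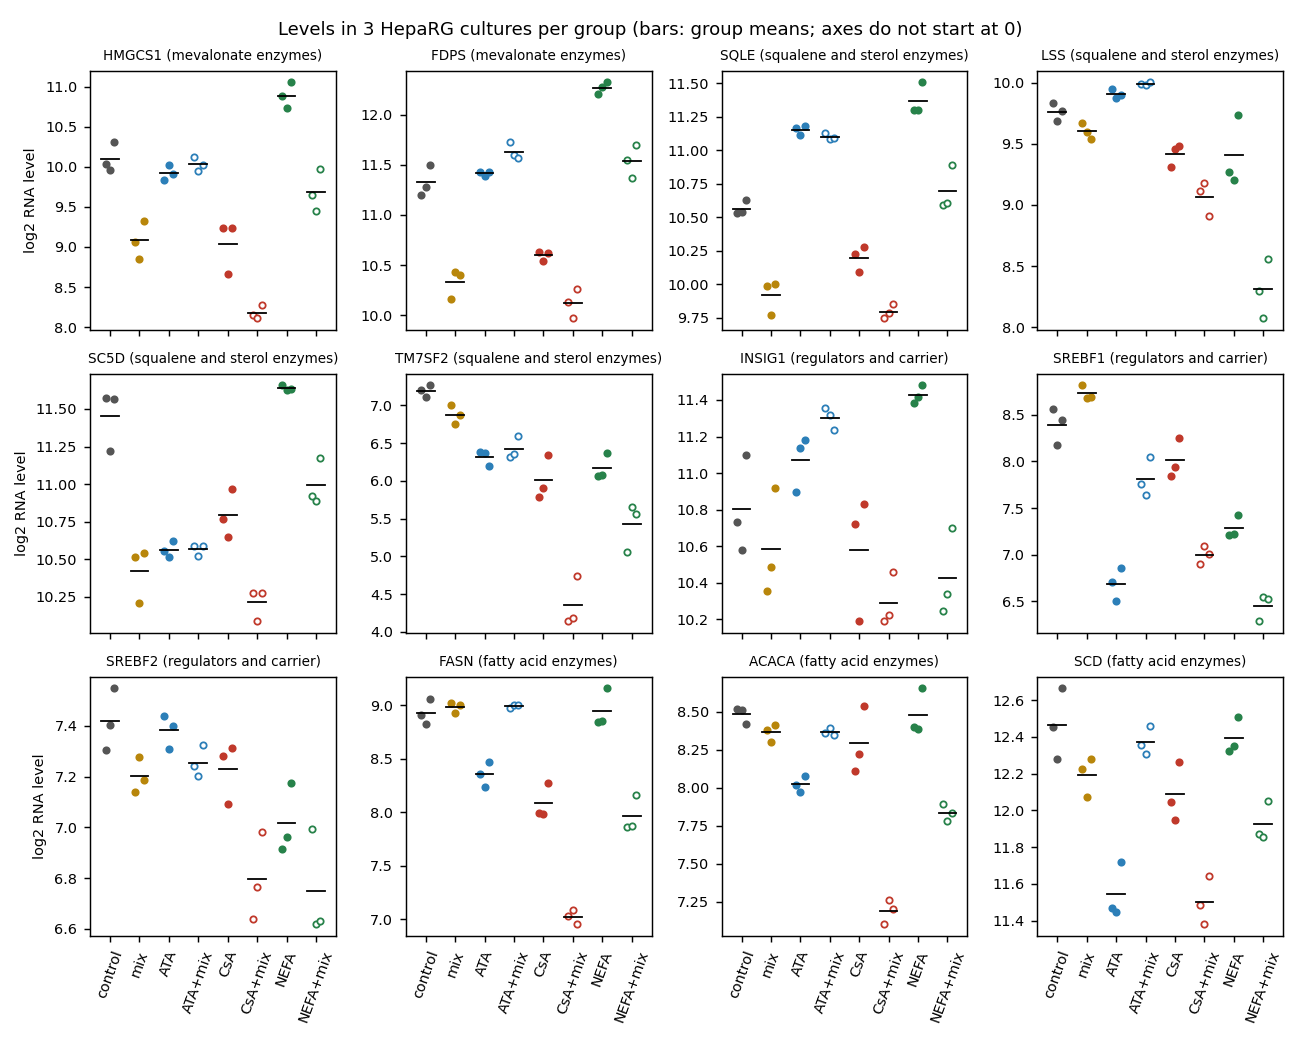
Log2 RNA level of 12 members in each HepaRG culture, 3 per group, with the group mean as a black bar; open points are cultures with a drug and the mix, filled points the other groups (ATA, atazanavir; CsA, cyclosporin A; NEFA, nefazodone). HMGCS1, FDPS, SQLE and SC5D are lower with the mix than in control, and the 3 cultures with cyclosporin A and mix have the lowest means of FASN and ACACA.

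Cultures with the bile acid mix alone had lower RNA of sterol enzymes. Of 16 sterol enzymes 11 fell and none rose (adjusted p under 0.05 by limma, adjusted over all genes), and the median log2 change of the 16 was -0.56, against 0.01 over all genes. Of 7 fatty acid enzymes 1 fell, with a median of -0.27, and of the 4 regulators and carriers 1 fell. Over all genes this comparison called 6.78% higher and 3.37% lower, so 13 of 27 members on the lower side and 0 on the higher compares with a background in which higher calls were the more frequent.

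HMGCS1 read 10.03, 9.96 and 10.31 in the 3 control cultures and 9.07, 8.86 and 9.33 with the mix, a log2 change of -1.02 ± 0.15, adjusted p = 0.000122 (2.03-fold lower). FDPS, which makes farnesyl diphosphate, read 11.20, 11.27 and 11.50 in control and 10.17, 10.43 and 10.40 with the mix (-0.99 ± 0.10, adjusted p = 8.39e-07). SC5D, a late sterol desaturase, read 11.57, 11.22 and 11.56 and 10.52, 10.21 and 10.54 (-1.03 ± 0.11, adjusted p = 1.70e-06). In all 3 genes every mix culture lay below every control culture. SQLE, squalene epoxidase, read 10.53, 10.54 and 10.63 in control and 9.99, 9.77 and 10.01 with the mix (-0.64 ± 0.09, adjusted p = 3.59e-05). ACAT2, the cytosolic thiolase at the head of the pathway, changed by -0.85 ± 0.15, adjusted p = 0.000490, and the dehydrogenase NSDHL by -0.57 ± 0.11, adjusted p = 0.00180. Falls between 0.37 and 0.58 were called for MVD, IDI1, EBP, HSD17B7 and MSMO1. A second IDI1 probe set, far dimmer at a mean of 6.16, changed by 0.21 in the opposite direction. LSS, lanosterol synthase, did not pass (-0.16 ± 0.12, adjusted p = 0.489), nor did TM7SF2, DHCR7, MVK and PMVK. MSMO1 no longer passed once any 1 of control 1, control 3, mix 1 or mix 2 was dropped (adjusted p 0.0615 to 0.192), after quantile normalization again (0.107) or with only the control and mix arrays in the fit (0.0877).

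Of the regulators and carriers STARD4, a cytosolic sterol carrier, fell from 8.39, 8.53 and 8.56 to 7.86, 8.07 and 8.13 (-0.47 ± 0.09, adjusted p = 0.00225). SREBF1 was higher in every mix culture than in every control culture but missed the threshold (0.34 ± 0.13, adjusted p = 0.101), and SREBF2 (-0.22 ± 0.11, adjusted p = 0.229) and INSIG1 (-0.22 ± 0.16, adjusted p = 0.486) did not pass. Among fatty acid enzymes only ACLY, which makes cytosolic acetyl-CoA from citrate, was called, at -0.42 ± 0.11, adjusted p = 0.0196. That call ended when any 1 of control 2, control 3, mix 1 or mix 2 was dropped (adjusted p 0.0573 to 0.113). FASN, fatty acid synthase, read 8.91, 8.82 and 9.06 in control and 9.02, 8.92 and 9.001 with the mix (95% confidence interval -0.16 to 0.26 for the log2 change), and the groups overlapped. ACACA, acetyl-CoA carboxylase 1, changed by -0.12 ± 0.09, adjusted p = 0.510. SCD, stearoyl-CoA desaturase, changed by -0.27 ± 0.11, adjusted p = 0.122 and passed, at adjusted p = 0.00663, when replicate number was added as a block. Of the hepatocyte markers 3 of 10 fell here, with a median change of -0.48, and the part of this shift in the member falls was not tested.

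**Figure D2:**
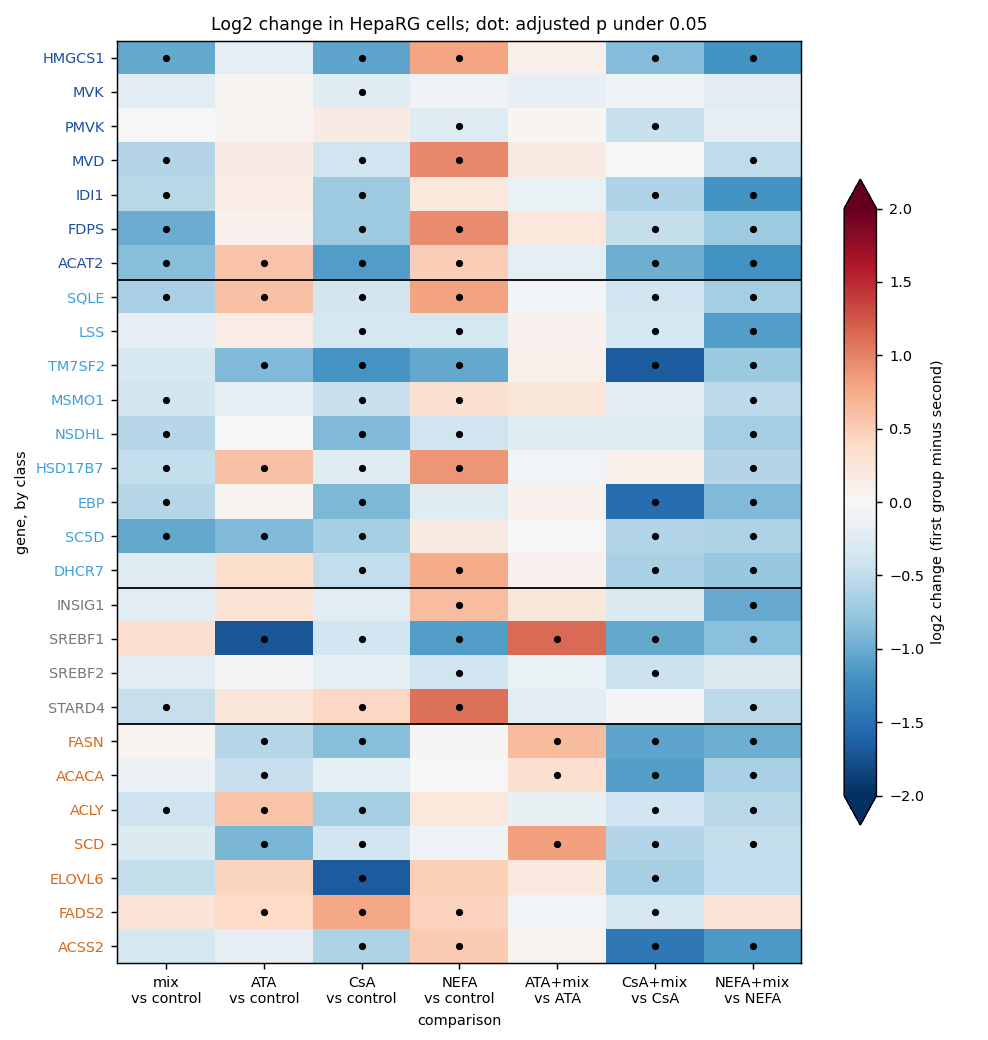
Log2 change of 27 members (rows, by class) in 7 HepaRG comparisons (columns), first group minus second, on a colour scale from -2 to 2; a dot marks an adjusted p under 0.05. The column for the mix has 11 dots among the 16 sterol enzymes and 1 among the 7 fatty acid enzymes, and the column for atazanavir with mix against atazanavir has dots on SREBF1, FASN, ACACA and SCD only.

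With atazanavir alone, members were called in both directions. Of 16 sterol enzymes 3 rose and 2 fell, with a median change of 0.07. Of 7 fatty acid enzymes 2 rose and 3 fell, with a median of -0.17, and SREBF1 fell. The background was 22.2% higher and 13.2% lower, so 5 of 27 higher is near that share and 6 of 27 lower is above it. For the sterol enzymes, 3 of 16 higher and 2 of 16 lower are near the background. Their median of 0.07 is near the 0.02 of all genes.

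SREBF1 fell from 8.56, 8.18 and 8.45 in control to 6.70, 6.50 and 6.85 with atazanavir, 3.27-fold (-1.71 ± 0.13, adjusted p = 1.11e-09), with no overlap. SCD fell from 12.46, 12.28 and 12.66 to 11.47, 11.45 and 11.72 (-0.92 ± 0.11, adjusted p = 6.28e-07), FASN from 8.91, 8.82 and 9.06 to 8.36, 8.24 and 8.47 (-0.57 ± 0.10, adjusted p = 0.000105) and ACACA from 8.52, 8.51 and 8.42 to 8.01, 7.97 and 8.07 (-0.46 ± 0.09, adjusted p = 0.000351). These 3 are the central enzymes of fatty acid synthesis and desaturation. A dimmer FASN probe set (mean 4.59) and a dimmer ACACA one (mean 4.68) changed by 0.08 and 0.0019. ACLY rose (0.57 ± 0.11, adjusted p = 0.000347), and FADS2, the delta-6 desaturase, rose by 0.41 ± 0.12, adjusted p = 0.00891, a call lost without atazanavir 2 (adjusted p = 0.0772). With the mean of all probe sets of a gene, ACACA (adjusted p = 0.0965) and FADS2 (0.118) no longer passed. Among sterol enzymes SQLE rose from 10.53, 10.54 and 10.63 to 11.17, 11.12 and 11.18 (0.59 ± 0.09, adjusted p = 1.09e-05), HSD17B7, a 3-keto reductase, by 0.58 ± 0.09, adjusted p = 3.16e-05 and ACAT2 by 0.56 ± 0.15, adjusted p = 0.00367. SC5D fell to 10.56, 10.52 and 10.62 (-0.89 ± 0.11, adjusted p = 9.94e-07) and TM7SF2 to 6.39, 6.38 and 6.20 (-0.88 ± 0.17, adjusted p = 0.000194). HMGCS1 (-0.18 ± 0.15, adjusted p = 0.429), LSS (0.15 ± 0.12, adjusted p = 0.390), INSIG1 (0.27 ± 0.16, adjusted p = 0.235) and SREBF2 (-0.04 ± 0.11, adjusted p = 0.847) did not pass. All 10 hepatocyte markers fell with atazanavir, with a median of -3.08. Their part in these changes was not tested.

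When the mix was added to atazanavir, no sterol enzyme passed the threshold, in either direction, among 16 (median 0.06), while 3 of 7 fatty acid enzymes and SREBF1 rose. Of these 16, 3 had an unadjusted limma p under 0.05 (FDPS, MSMO1 and MVK), and the changes of the 16 ran from -0.23 to 0.24. The background was 8.95% higher and 10.3% lower. SREBF1 read 7.76, 7.64 and 8.05 with both, against 6.70, 6.50 and 6.85 with atazanavir alone (1.13 ± 0.13, adjusted p = 2.02e-06). SCD read 12.35, 12.31 and 12.46 against 11.47, 11.45 and 11.72 (0.83 ± 0.11, adjusted p = 1.24e-05), FASN 8.98, 9.004 and 9.005 against 8.36, 8.24 and 8.47 (0.64 ± 0.10, adjusted p = 0.000111) and ACACA 8.36, 8.39 and 8.34 against 8.01, 7.97 and 8.07 (0.34 ± 0.09, adjusted p = 0.0104). None of the 4 overlapped between the groups, and another SCD probe set (mean 8.60) rose by 1.85. ACACA did not pass with the mean of all its probe sets (adjusted p = 0.127). HMGCS1 read 10.13, 9.95 and 10.02 against 9.84, 10.02 and 9.92, which overlap (0.11 ± 0.15, 95% confidence interval -0.21 to 0.42). The intervals for SQLE (95% confidence interval -0.23 to 0.13), SC5D (95% confidence interval -0.22 to 0.23), LSS (95% confidence interval -0.17 to 0.33), INSIG1 (95% confidence interval -0.11 to 0.57) and SREBF2 (95% confidence interval -0.35 to 0.09) all included 0. Of the hepatocyte markers 8 of 10 rose (median 1.09), and their part was not tested.

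The effect of the mix therefore differed with and without atazanavir, and the difference was tested as an interaction, the change with the mix in the presence of the drug minus its change without. It was positive and called for 13 of 27 members and negative and called for none, against 5.07% higher and 7.29% lower over all genes. Of the 16 sterol enzymes 9 were called, with a median interaction of 0.51: FDPS (1.20 ± 0.14, adjusted p = 9.91e-06), HMGCS1 (1.13 ± 0.22, adjusted p = 0.00137) and SC5D (1.03 ± 0.15, adjusted p = 0.000144) were the largest, and SQLE reached 0.59 ± 0.12, adjusted p = 0.00262. MVD, EBP, ACAT2, MSMO1 and HSD17B7 were called at 0.42 to 0.77, and LSS was not (0.24 ± 0.17, adjusted p = 0.436). Among fatty acid enzymes SCD (1.10 ± 0.15, adjusted p = 7.80e-05), FASN (0.59 ± 0.14, adjusted p = 0.00904) and ACACA (0.46 ± 0.13, adjusted p = 0.0219) were called, as was SREBF1 (0.79 ± 0.18, adjusted p = 0.00486), while INSIG1 (0.45 ± 0.23, adjusted p = 0.251) and SREBF2 (0.09 ± 0.15, adjusted p = 0.798) were not. The calls of ACAT2 and HSD17B7 were lost on leaving out any 1 of 9 and of 8 of the 12 cultures (adjusted p 0.0563 to 0.112 and 0.0569 to 0.108), that of EBP without control 3 or atazanavir and mix 3 (0.066 and 0.0528), and that of ACACA without mix 2 or atazanavir 2 (0.0599 and 0.0543). FASN (adjusted p = 0.378) and ACACA (0.389) had no called interaction with the mean of all their probe sets. The hepatocyte markers moved the same way: 9 of 10 had a called positive interaction, with a median of 1.81, and their part was not tested.

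**Figure D3:**
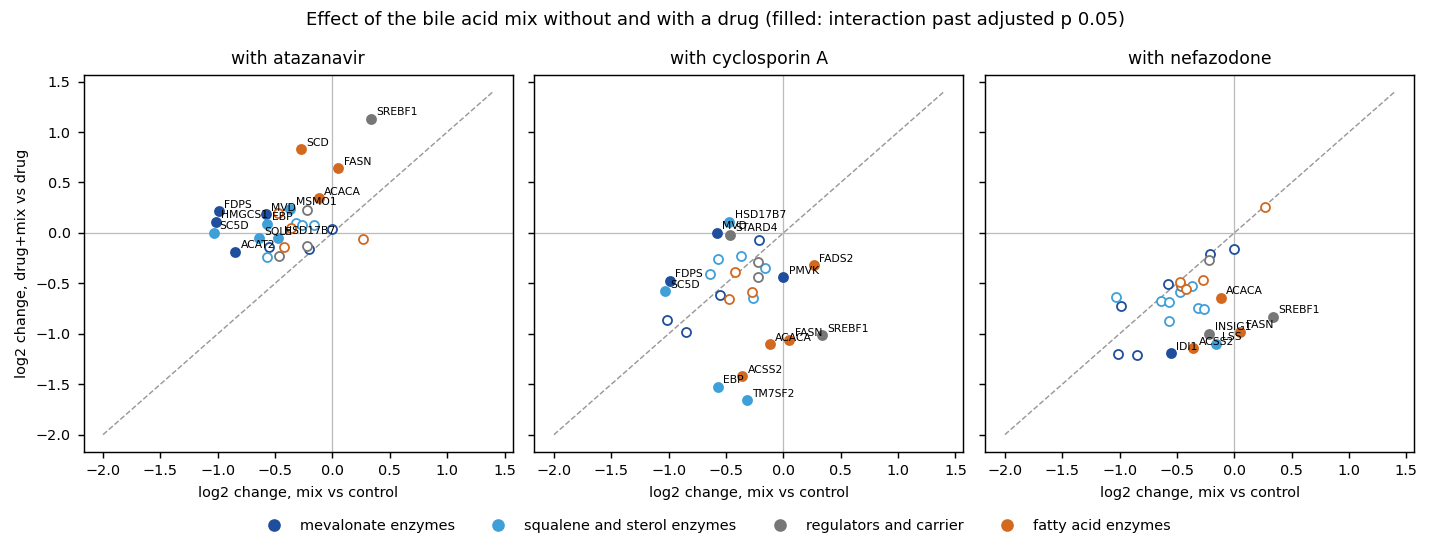
Log2 change with the bile acid mix in the presence of each drug (vertical axes) against its change without a drug (horizontal axes) for 27 members, coloured by class; filled, named points have an interaction past adjusted p 0.05, and the dashed line marks equal change. With atazanavir the sterol enzymes lie near 0 on the vertical axis, between -0.23 and 0.24, and 13 points are filled, all above the line.

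Cyclosporin A alone lowered most of the list. Of 16 sterol enzymes 15 fell and none rose (median -0.57), and of 7 fatty acid enzymes 5 fell and 1 rose (median -0.61). The background was 22.2% higher and 18.5% lower, against 2 of 27 members higher and 21 lower. TM7SF2 fell from 7.21, 7.11 and 7.26 to 5.79, 5.90 and 6.35 (-1.18 ± 0.17, adjusted p = 4.22e-06), ACAT2 from 9.81, 9.64 and 9.99 to 8.72, 8.45 and 8.93 (-1.11 ± 0.15, adjusted p = 1.71e-06) and HMGCS1 from 10.03, 9.96 and 10.31 to 9.23, 8.66 and 9.23 (-1.06 ± 0.15, adjusted p = 6.11e-06). In each the groups were apart. EBP, a sterol isomerase, changed by -0.90 ± 0.13, adjusted p = 7.11e-06, NSDHL by -0.89 ± 0.11, adjusted p = 1.25e-06, IDI1 by -0.72 ± 0.12, adjusted p = 4.57e-05 and FDPS by -0.72 ± 0.10, adjusted p = 2.86e-06. SC5D (-0.66 ± 0.11, adjusted p = 3.31e-05), SQLE (-0.37 ± 0.09, adjusted p = 0.00146) and LSS (-0.35 ± 0.12, adjusted p = 0.0236) also fell. PMVK, phosphomevalonate kinase, was the 1 sterol enzyme not called (0.16 ± 0.09, adjusted p = 0.187).

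ELOVL6 fell most among fatty acid enzymes with cyclosporin A, from 9.06, 9.14 and 9.45 to 7.85, 6.86 and 7.96 (3.16-fold, -1.66 ± 0.20, adjusted p = 5.70e-07). Cyclosporin A 2 was the lowest of the 3 cultures, and all 3 lay below control. FASN fell to 7.99, 7.99 and 8.27 (-0.85 ± 0.10, adjusted p = 5.76e-07). ACLY (-0.68 ± 0.11, adjusted p = 4.44e-05), ACSS2, the cytosolic acetyl-CoA synthetase (-0.61 ± 0.14, adjusted p = 0.00103), and SCD (-0.38 ± 0.11, adjusted p = 0.00687) fell, while ACACA did not pass (-0.19 ± 0.09, adjusted p = 0.108) except without cyclosporin A 3 (-0.31, adjusted p = 0.00462). FADS2 rose from 5.08, 5.07 and 4.97 to 5.54, 5.99 and 5.92 (0.78 ± 0.12, adjusted p = 1.14e-05), and STARD4 rose from 8.39, 8.53 and 8.56 to 9.06, 8.67 and 9.002 (0.42 ± 0.09, adjusted p = 0.000978). SREBF1 fell with overlapping groups (-0.38 ± 0.13, adjusted p = 0.0191), and SREBF2 (-0.19 ± 0.11, adjusted p = 0.169) and INSIG1 (-0.22 ± 0.16, adjusted p = 0.312) did not pass. Dimmer probe sets of FASN (mean 4.59, change 0.44), SC5D (mean 3.11, 0.20), IDI1 (mean 6.16, 0.36) and FADS2 (mean 3.63, -0.09) ran the other way, and with the mean of all probe sets FASN (adjusted p = 0.0774), SC5D (0.104), SCD (0.182), MVK (0.139) and SREBF1 (0.0622) no longer passed. Leaving out 1 culture ended the calls of HSD17B7 (control 2 or 3, cyclosporin A 2 or 3), SREBF1 (control 1 or 3, cyclosporin A 1 or 2), LSS (control 1 or 3, cyclosporin A 1), DHCR7 (control 3, cyclosporin A 2), MVK (cyclosporin A 1) and SCD (control 3), with adjusted p from 0.0501 to 0.12. The 10 hepatocyte markers all fell (median -1.75), and their part was not tested.

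Adding the mix to cyclosporin A lowered the list further, and here all 7 fatty acid enzymes fell (median -0.66) along with 11 of 16 sterol enzymes (median -0.46). No member rose. The background was 18.4% higher and 18.4% lower, against 20 of 27 members lower. ACSS2 read 7.12, 7.09 and 7.31 with both, against 8.44, 8.40 and 8.94 with cyclosporin A alone (-1.42 ± 0.14, adjusted p = 5.68e-08). ACACA read 7.10, 7.26 and 7.20 against 8.11, 8.22 and 8.54 (-1.10 ± 0.09, adjusted p = 6.40e-09) and FASN 7.03, 7.09 and 6.95 against 7.99, 7.99 and 8.27 (-1.06 ± 0.10, adjusted p = 4.62e-08). SCD fell (-0.58 ± 0.11, adjusted p = 0.000167). TM7SF2 read 4.14, 4.18 and 4.74 against 5.79, 5.90 and 6.35 (-1.66 ± 0.17, adjusted p = 7.31e-08), a mean just above the dim range. EBP read 8.15, 8.20 and 8.34 against 9.64, 9.53 and 10.10 (-1.53 ± 0.13, adjusted p = 9.16e-09), although a dimmer EBP probe set (mean 4.93) changed by -0.08. ACAT2 (-0.98 ± 0.15, adjusted p = 1.32e-05), HMGCS1 (-0.86 ± 0.15, adjusted p = 9.93e-05), SC5D (-0.58 ± 0.11, adjusted p = 0.000179), SQLE (-0.40 ± 0.09, adjusted p = 0.000698) and LSS (-0.35 ± 0.12, adjusted p = 0.0255) fell too. SREBF1 read 6.90, 7.09 and 7.01 against 7.84, 7.94 and 8.25 (-1.02 ± 0.13, adjusted p = 1.44e-06), SREBF2 fell (-0.43 ± 0.11, adjusted p = 0.00252), and INSIG1 did not pass (-0.29 ± 0.16, adjusted p = 0.184). MVD (0.00053 ± 0.11) and HSD17B7 (0.11 ± 0.09) were not called. Leaving out 1 culture ended the calls of LSS (cyclosporin A 2 or 3, cyclosporin A and mix 3), FADS2 (cyclosporin A 2 or 3, cyclosporin A and mix 1, 2 or 3), ELOVL6 (cyclosporin A 1 or 3) and ACLY (cyclosporin A 3), with adjusted p from 0.0655 to 0.167. IDI1 (adjusted p = 0.170), LSS (0.961) and SREBF2 (0.149) did not pass with the mean of all their probe sets. The 10 hepatocyte markers all fell (median -2.49), and their part was not tested.

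The interaction of cyclosporin A with the mix was called in both directions. Of 7 fatty acid enzymes 4 had a called negative interaction and none a positive one (median -0.59): FASN (-1.11 ± 0.14, adjusted p = 6.47e-06), ACSS2 (-1.06 ± 0.20, adjusted p = 0.000323), ACACA (-0.99 ± 0.13, adjusted p = 7.80e-06) and FADS2 (-0.59 ± 0.17, adjusted p = 0.0114). Of 16 sterol enzymes 4 were positive (MVD, HSD17B7, FDPS and SC5D, 0.45 to 0.58) and 3 negative (TM7SF2, EBP and PMVK, -1.34 to -0.44), with a median of 0.14. SREBF1 was negative (-1.35 ± 0.18, adjusted p = 8.00e-06) and STARD4 positive (0.45 ± 0.13, adjusted p = 0.0153). SCD (-0.31 ± 0.15, adjusted p = 0.155), HMGCS1 (0.16 ± 0.22, adjusted p = 0.671), SQLE (0.24 ± 0.12, adjusted p = 0.175), LSS (-0.19 ± 0.17, adjusted p = 0.478), INSIG1 (-0.07 ± 0.23, adjusted p = 0.867) and SREBF2 (-0.21 ± 0.15, adjusted p = 0.345) were not called. The background was 10.9% higher and 15% lower, which 5 of 27 positive and 8 of 27 negative exceed on both sides. The SC5D call ended on leaving out any 1 of 7 cultures (adjusted p 0.0528 to 0.108), and those of PMVK without cyclosporin A 3 (0.0514) and STARD4 without mix 1 (0.0544), and with the mean of all probe sets FADS2 (0.0805) and SC5D (0.476) were not called. Among hepatocyte markers 9 of 10 had a called negative interaction (median -1.39), and their part was not tested.

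Nefazodone alone raised a block of sterol enzymes while SREBF1 fell. Of 16 sterol enzymes 8 rose and 4 fell (median 0.26), of 7 fatty acid enzymes 2 rose and none fell (median 0.21), and 2 of the 4 regulators and carriers rose and 2 fell. The background was 25% higher and 20.6% lower, against 12 of 27 members higher and 6 lower. On the lower side, 6 of 27 members and 4 of 16 sterol enzymes are near that background. The 2 of 7 fatty acid enzymes higher are near it too. MVD, which makes isopentenyl diphosphate, rose from 6.60, 6.34 and 6.66 to 7.65, 7.42 and 7.43 (0.97 ± 0.11, adjusted p = 1.39e-07), FDPS from 11.20, 11.27 and 11.50 to 12.20, 12.28 and 12.32 (0.94 ± 0.10, adjusted p = 3.39e-08) and HMGCS1 from 10.03, 9.96 and 10.31 to 10.88, 10.74 and 11.05 (0.79 ± 0.15, adjusted p = 0.000146). All 3 were free of overlap. HSD17B7 changed by 0.88 ± 0.09, adjusted p = 4.81e-08, SQLE by 0.80 ± 0.09, adjusted p = 5.54e-08 and DHCR7, the last reductase of the pathway, by 0.75 ± 0.14, adjusted p = 0.000110. TM7SF2 fell from 7.21, 7.11 and 7.26 to 6.06, 6.08 and 6.37 (-1.03 ± 0.17, adjusted p = 1.63e-05). NSDHL (-0.39 ± 0.11, adjusted p = 0.00605), LSS (-0.36 ± 0.12, adjusted p = 0.0173) and PMVK (-0.26 ± 0.09, adjusted p = 0.0262) fell too, and dimmer LSS probe sets (means 5.59 and 5.02) changed by 0.06 and 0.18. SC5D was not called (0.18 ± 0.11, adjusted p = 0.191).

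STARD4 rose most with nefazodone, from 8.39, 8.53 and 8.56 to 9.51, 9.63 and 9.64 (2.15-fold, 1.10 ± 0.09, adjusted p = 1.80e-09). INSIG1, a sterol-responsive gene whose product restrains SREBP, rose from 10.73, 10.58 and 11.10 to 11.39, 11.42 and 11.48 (0.62 ± 0.16, adjusted p = 0.00309). SREBF1 fell from 8.56, 8.18 and 8.45 to 7.21, 7.22 and 7.42 (-1.11 ± 0.13, adjusted p = 1.29e-07), and SREBF2 fell (-0.40 ± 0.11, adjusted p = 0.00320), where a second SREBF2 probe set (mean 6.55) rose by 0.29. FASN (0.02 ± 0.10, adjusted p = 0.907), ACACA (-0.0026 ± 0.09, adjusted p = 0.987) and SCD (-0.07 ± 0.11, adjusted p = 0.656) were not called, and ACSS2 (0.52 ± 0.14, adjusted p = 0.00358) and FADS2 (0.46 ± 0.12, adjusted p = 0.00251) rose. With the mean of all probe sets, SCD changed by 0.51, the opposite sign, and passed (adjusted p = 0.00241), as did FASN at 0.35 (0.00239), while LSS (0.815) and SREBF2 (0.501) no longer passed. Leaving out 1 culture ended the calls of LSS (control 1, nefazodone 1 or 2), PMVK (control 1 or 2, nefazodone 1 or 2), MSMO1 (control 1 or 2, nefazodone 3) and ACAT2 (nefazodone 3), with adjusted p from 0.0551 to 0.14. Of the hepatocyte markers 9 of 10 fell (median -2.18), and their part was not tested.

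Adding the mix to nefazodone lowered 22 of 27 members and raised none, against a background of 7.55% higher and 7.92% lower. Of 16 sterol enzymes 14 fell (median -0.71), of 7 fatty acid enzymes 5 (median -0.56) and of the 4 regulators and carriers 3. Of the hepatocyte markers 0 of 10 passed in limma, with 1 at an unadjusted p under 0.05, and their median was 0.006. HMGCS1 read 9.65, 9.45 and 9.98 with both, against 10.88, 10.74 and 11.05 with nefazodone alone (-1.20 ± 0.15, adjusted p = 1.14e-05). ACAT2 fell from 10.16, 10.20 and 10.56 to 9.07, 8.76 and 9.45 (-1.21 ± 0.15, adjusted p = 5.65e-06), IDI1 from 11.75, 11.80 and 12.06 to 10.45, 10.56 and 11.02 (-1.19 ± 0.12, adjusted p = 1.04e-06) and LSS from 9.27, 9.21 and 9.74 to 8.30, 8.07 and 8.55 (-1.10 ± 0.12, adjusted p = 2.04e-06). In all 4 the groups were apart. EBP (-0.88 ± 0.13, adjusted p = 6.86e-05), SQLE (-0.67 ± 0.09, adjusted p = 1.23e-05) and SC5D (-0.64 ± 0.11, adjusted p = 0.000262) fell as well. ACSS2 read 8.55, 8.36 and 8.84 against 9.56, 9.69 and 9.92 (-1.14 ± 0.14, adjusted p = 6.82e-06) and FASN 7.86, 7.87 and 8.16 against 8.84, 8.85 and 9.15 (-0.98 ± 0.10, adjusted p = 1.21e-06). ACACA (-0.64 ± 0.09, adjusted p = 4.09e-05) and SCD (-0.47 ± 0.11, adjusted p = 0.00409) fell. INSIG1 read 10.25, 10.34 and 10.70 against 11.39, 11.42 and 11.48 (95% confidence interval -1.34 to -0.66 for the log2 change, adjusted p = 0.000200), SREBF1 fell (-0.83 ± 0.13, adjusted p = 8.09e-05), and SREBF2 did not pass (-0.27 ± 0.11, adjusted p = 0.0995). FADS2, ELOVL6, MVK and PMVK did not pass either.

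For 14 of 16 sterol enzymes no difference between the change with the mix in the presence and in the absence of nefazodone was called. The interaction was called negative for 7 of 27 members and positive for none, against 4.57% higher and 7.31% lower, and for 2 of 16 sterol enzymes (median -0.16), LSS (-0.94 ± 0.17, adjusted p = 0.000770) and IDI1 (-0.64 ± 0.17, adjusted p = 0.0168). HMGCS1 (-0.18 ± 0.22, adjusted p = 0.690), SQLE (-0.03 ± 0.12, adjusted p = 0.918) and SC5D (0.39 ± 0.15, adjusted p = 0.109) were not called, with a 95% confidence interval -0.63 to 0.27 for HMGCS1 and a 95% confidence interval -0.29 to 0.22 for SQLE. Of 7 fatty acid enzymes FASN (-1.03 ± 0.14, adjusted p = 7.06e-05), ACSS2 (-0.78 ± 0.20, adjusted p = 0.0107) and ACACA (-0.53 ± 0.13, adjusted p = 0.00971) were called and SCD was not (-0.19 ± 0.15, adjusted p = 0.502). SREBF1 (-1.17 ± 0.18, adjusted p = 0.000160) and INSIG1 (-0.78 ± 0.23, adjusted p = 0.0310) were called and SREBF2 was not (-0.05 ± 0.15, adjusted p = 0.892). The INSIG1 call ended on leaving out any 1 of 7 cultures and the IDI1 call on leaving out any 1 of 4 (adjusted p 0.05 to 0.0934 and 0.0507 to 0.0578), and with the mean of all probe sets INSIG1 did not pass (0.0628). Of the hepatocyte markers 2 of 10 had a called positive interaction (median 0.64).

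With the mix in both groups, the drugs differed from the mix alone in 3 ways. These comparisons share the mix cultures, so each is given by its own values. With atazanavir 12 of 16 sterol enzymes were higher and 1 lower (median 0.63), and 2 of 7 fatty acid enzymes were higher, against 15.1% higher and 13.3% lower over all genes. FDPS was 11.73, 11.59 and 11.57 with atazanavir and mix and 10.17, 10.43 and 10.40 with mix (1.29 ± 0.10, adjusted p = 3.15e-09), and SQLE was 11.13, 11.08 and 11.09 against 9.99, 9.77 and 10.01 (1.18 ± 0.09, adjusted p = 1.91e-09), whereas FASN (0.01 ± 0.10, adjusted p = 0.947) and ACACA (0.00073 ± 0.09, adjusted p = 0.997) did not pass. With cyclosporin A 10 of 16 sterol enzymes were lower and 1 higher (median -0.42), and 6 of 7 fatty acid enzymes were lower (median -1.18), against 25.7% higher and 25.5% lower. FASN was 7.03, 7.09 and 6.95 there against 9.02, 8.92 and 9.001 (-1.96 ± 0.10, adjusted p = 3.79e-13). With nefazodone 6 of 16 sterol enzymes were higher and 6 lower (median 0.13), and 1 of 7 fatty acid enzymes was higher and 3 lower, against 24.8% higher and 24.8% lower. There SREBF1 was 6.28, 6.54 and 6.52 against 8.82, 8.68 and 8.70 (-2.28 ± 0.13, adjusted p = 1.36e-12), while FDPS (1.20 ± 0.10, adjusted p = 6.31e-10) and MVD (1.04 ± 0.11, adjusted p = 4.28e-08) were higher and TM7SF2 (-1.45 ± 0.17, adjusted p = 1.17e-07) and LSS (-1.30 ± 0.12, adjusted p = 4.38e-09) lower. Of the hepatocyte markers 6, 10 and 8 of 10 were lower in these comparisons and 0 higher, and their part was not tested.

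The drugs were also compared directly, at the single dose of each, which differed (60, 20 and 30 µM). Atazanavir against cyclosporin A had 18 of 27 members higher and 4 lower (background 19.8% higher and 20.3% lower), with 13 of 16 sterol enzymes higher and the widest differences in ELOVL6 (2.11 ± 0.20, adjusted p = 1.87e-08) and ACAT2 (1.68 ± 0.15, adjusted p = 4.72e-09). Atazanavir against nefazodone had 5 higher and 13 lower (background 19.7% higher and 20.1% lower), led by SC5D (-1.07 ± 0.11, adjusted p = 3.24e-08) and HMGCS1 (-0.97 ± 0.15, adjusted p = 1.69e-05). Cyclosporin A against nefazodone had 3 higher and 19 lower (background 17.6% higher and 19.4% lower), led by ELOVL6 (-2.14 ± 0.20, adjusted p = 2.46e-08) and HMGCS1 (-1.85 ± 0.15, adjusted p = 4.13e-09). With the mix in both groups, atazanavir against cyclosporin A had 25 of 27 members higher and 1 lower (background 23.9% higher and 23.6% lower). All 16 sterol enzymes were higher there, from 0.20 for MVK to 2.56 ± 0.13 for EBP, and the exception was STARD4 (-0.40 ± 0.09, adjusted p = 0.00115), while FADS2 was not called. The MVK call ended after quantile normalization again (adjusted p = 0.258) and without atazanavir and mix 1 or cyclosporin A and mix 1 or 3 (0.0776 to 0.117), and the SC5D call with the mean of all probe sets (0.215) and without cyclosporin A and mix 2 (0.0575). ELOVL6 read 9.92, 9.87 and 9.80 with atazanavir and mix and 6.79, 6.94 and 6.96 with cyclosporin A and mix (2.97 ± 0.20, adjusted p = 3.74e-11). Atazanavir against nefazodone, both with mix, had 20 higher and 3 lower (background 21.2% higher and 22.4% lower), led by LSS (1.68 ± 0.12, adjusted p = 1.31e-10). Cyclosporin A against nefazodone, both with mix, had 2 higher and 18 lower (background 18.5% higher and 22.4% lower), led by ELOVL6 (-2.31 ± 0.20, adjusted p = 4.26e-09) and HMGCS1 (-1.51 ± 0.15, adjusted p = 4.01e-08). Hepatocyte markers differed between the drugs too. Without mix 0 of 10 were higher and 8 lower in atazanavir than in cyclosporin A (median -1.52), 1 and 5 in atazanavir than in nefazodone (-0.74), and 3 and 1 in cyclosporin A than in nefazodone (0.58). With mix the counts were 10 and 0 (2.37), 3 and 1 (0.23) and 0 and 10 (-1.96) in the same order, and their part in the member differences was not tested.

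Set side by side, the sterol and fatty acid enzymes had medians of -0.56 and -0.27 with the mix, 0.07 and -0.17 with atazanavir, -0.57 and -0.61 with cyclosporin A and 0.26 and 0.21 with nefazodone. For the mix added to a drug they were 0.06 and 0.20 with atazanavir, -0.46 and -0.66 with cyclosporin A and -0.71 and -0.56 with nefazodone. All genes had medians between -0.05 and 0.04 in every comparison. These are descriptions of 16 and 7 genes and no test of 1 class against the other. SREBF1 group means ran from 6.45 with nefazodone and mix to 8.73 with the mix alone, and SREBF2 group means from 6.75 to 7.42.

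Other genes of the pathway were counted from lists of related genes. Of 12 measured genes of SREBP processing and cholesterol trafficking, 3 rose and 1 fell with the mix, 6 rose and 4 fell with atazanavir, 7 and 2 with cyclosporin A and 6 and 3 with nefazodone. Over all genes the shares called were 6.78% higher and 3.37% lower with the mix, 22.2% higher and 13.2% lower with atazanavir, 22.2% higher and 18.5% lower with cyclosporin A and 25% higher and 20.6% lower with nefazodone, so the lower counts with cyclosporin A and nefazodone are near the background. NPC1, which exports cholesterol from lysosomes, changed by 1.99 ± 0.12 with atazanavir, 1.87 ± 0.12 with cyclosporin A and 2.31 ± 0.12 with nefazodone, all past the threshold. TMEM97, an NPC1-binding protein, fell with the mix (-0.64 ± 0.11) and with cyclosporin A (-1.05 ± 0.11) and rose with atazanavir (0.57 ± 0.11). INSIG2 rose with cyclosporin A (0.87 ± 0.09) and nefazodone (0.85 ± 0.09). Of 10 measured genes of sterol efflux, esterification and LXR, 1 rose with the mix (ABCG1, 1.06 ± 0.27, from the dim range), 2 rose and 6 fell with atazanavir (median -1.01), 1 and 5 with cyclosporin A and 1 and 4 with nefazodone. ABCA1, the cholesterol exporter, fell with atazanavir (-2.61 ± 0.14), cyclosporin A (-0.68 ± 0.14) and nefazodone (-0.95 ± 0.14), and rose by 0.94 ± 0.14 when the mix was added to atazanavir. NR1H3, which encodes LXR alpha, fell (-2.08 ± 0.16) when the mix was added to cyclosporin A.

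Of 7 measured further isoprenoid and sterol genes, 0 passed with the mix in limma (2 at an unadjusted p under 0.05), 4 rose with atazanavir, 3 rose and 3 fell with cyclosporin A and 2 and 3 with nefazodone. DHDDS, which makes dolichol precursors, rose with cyclosporin A (0.97 ± 0.09) and nefazodone (0.75 ± 0.09), and LBR, a second sterol reductase, fell with both (-0.84 ± 0.09 and -0.66 ± 0.09). Of 18 further lipogenic genes, 0 rose and 4 fell with the mix, 2 and 9 with atazanavir, 3 and 10 with cyclosporin A and 5 and 7 with nefazodone. Over all genes the shares higher and lower were 6.78% and 3.37% with the mix and 22.2% and 13.2% with atazanavir. They were 22.2% and 18.5% with cyclosporin A and 25% and 20.6% with nefazodone. The 5 lipogenic and 2 isoprenoid and sterol genes that rose with nefazodone are near that background. The 2 and 3 lipogenic genes that rose with atazanavir and cyclosporin A are below it. MID1IP1, an activator of acetyl-CoA carboxylase, fell with the mix (-0.95 ± 0.08), and so did MLXIPL, the carbohydrate response factor ChREBP (-0.63 ± 0.10). GPAM, the first enzyme of glycerolipid synthesis, fell with atazanavir (-2.18 ± 0.36) and cyclosporin A (-1.59 ± 0.36), and when the mix was added to cyclosporin A (-2.86 ± 0.36) or nefazodone (-2.11 ± 0.36). ELOVL2 fell with cyclosporin A (-2.15 ± 0.17) and nefazodone (-3.04 ± 0.17), while ELOVL7 rose with nefazodone (1.83 ± 0.08).

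In ligated mouse liver the sterol enzymes that passed were lower and the fatty acid enzymes that passed were higher. Of 17 sterol enzymes 5 fell and none rose (median -0.21), and of 8 fatty acid enzymes 3 rose and none fell (median 0.34), with 1 of 4 regulators and carriers lower. The background was 20.5% higher and 21.1% lower (median -0.05 over all genes), so 6 of 29 members lower is near it and 3 of 29 higher is below it. Scd1, the main hepatic desaturase, read, as lowest, median and highest of 6 livers, 11.94, 13.39 and 13.80 in sham and 14.16, 14.42 and 14.55 after ligation, 2.28-fold higher (1.19 ± 0.25, adjusted p = 0.00203). Every ligated liver was above every sham liver. A dimmer Scd1 probe set (mean 9.82) rose by 2.28. Fads2 read 10.31, 10.64 and 10.74 in sham and 10.73, 10.95 and 11.39 after ligation (0.42 ± 0.11, adjusted p = 0.00972), with a slight overlap, and Acaca 9.004, 9.29 and 9.91 and 9.56, 9.75 and 10.17 (0.42 ± 0.15, adjusted p = 0.0351). Fasn (0.36 ± 0.25, adjusted p = 0.252) and Fads1 (-0.13 ± 0.08, adjusted p = 0.191) were not called.

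Ebp read 11.99, 12.23 and 12.30 in sham and 11.73, 11.85 and 11.96 after ligation (-0.34 ± 0.07, adjusted p = 0.00127), and Stard4 read 9.43, 9.52 and 9.82 and 8.88, 9.25 and 9.39 (-0.38 ± 0.10, adjusted p = 0.00829). Of the 6 members that fell, these were the pair whose groups did not overlap. Tm7sf2 (-0.57 ± 0.15, adjusted p = 0.00816), Hsd17b7 (-0.50 ± 0.13, adjusted p = 0.00727) and Msmo1 (-0.49 ± 0.13, adjusted p = 0.00989) fell, each with some overlap. Mvd also fell (-0.51 ± 0.18, adjusted p = 0.0348). Hmgcs1 (0.31 ± 0.17, adjusted p = 0.155), Sqle (-0.27 ± 0.13, adjusted p = 0.0976), Lss (0.13 ± 0.20, adjusted p = 0.617), Sc5d (-0.18 ± 0.18, adjusted p = 0.432), Insig1 (-0.12 ± 0.14, adjusted p = 0.503), Srebf1 (-0.27 ± 0.21, adjusted p = 0.324) and Srebf2 (-0.11 ± 0.08, adjusted p = 0.285) did not pass. The sham livers varied among themselves: sham 3 and sham 4 had the 2 highest sham values of Hmgcs1 (13.08 and 13.13), Idi1 (13.07 and 13.03) and Lss (10.30 and 10.15), and sham 5 the lowest of Hmgcs1 (12.15), Lss (9.01) and Scd1 (11.94).

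Some mouse results changed side of the threshold when 1 liver was left out, and the Mvd and Acaca calls lay near the threshold. The Mvd call was lost on leaving out any 1 of ligated 1, 2, 4 or 5 or sham 2, 3, 4 or 5 (adjusted p 0.059 to 0.0708), and the Acaca call without any 1 of ligated 2, 3, 5 or 6 or sham 1, 2, 5 or 6 (0.0513 to 0.0804). With the mean of all probe sets neither passed (adjusted p = 0.130 and 0.140), while Sc5d did (-0.75, 0.00738), and after quantile normalization again Acaca did not (0.0715) and Srebf2 did (-0.26, 0.0192). Without sham 5, Sc5d (-0.36, adjusted p = 0.0188) and Sqle (-0.36, 0.0239) fell past the threshold, and without sham 4, Fasn (0.57, 0.0285) and Hmgcs1 (0.42, 0.0478) rose past it. Livers 1 of the ligated and 2 of the sham group stood apart in markers of other cells. The 7 intestinal markers had a mean log2 level of 8.79 in sham 2, against 5.57 in the lowest sham liver and 5.56 to 6.21 in ligated livers. The 6 biliary markers had a mean of 8.50 in ligated 1 and the 7 neutrophil markers 8.33, where the lowest ligated livers had 6.34 and 5.81. Without this pair of livers 5 members fell and 2 rose, and Mvd (adjusted p = 0.123) and Acaca (0.0582) were no longer called. Macrophage markers (6 genes) had a mean of 9.005 to 10.14 after ligation and 7.93 to 8.55 in sham, and biliary markers 6.34 to 8.50 and 5.25 to 6.61. Pancreatic acinar markers (6 genes) had a mean of 5.31 to 5.58 after ligation and 5.87 to 6.17 in sham, with no overlap, and 3 of the 6 were called lower. The part of these cells in the member changes was not tested. All 3 adipocyte markers measured lay in the dim range.

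**Figure D4:**
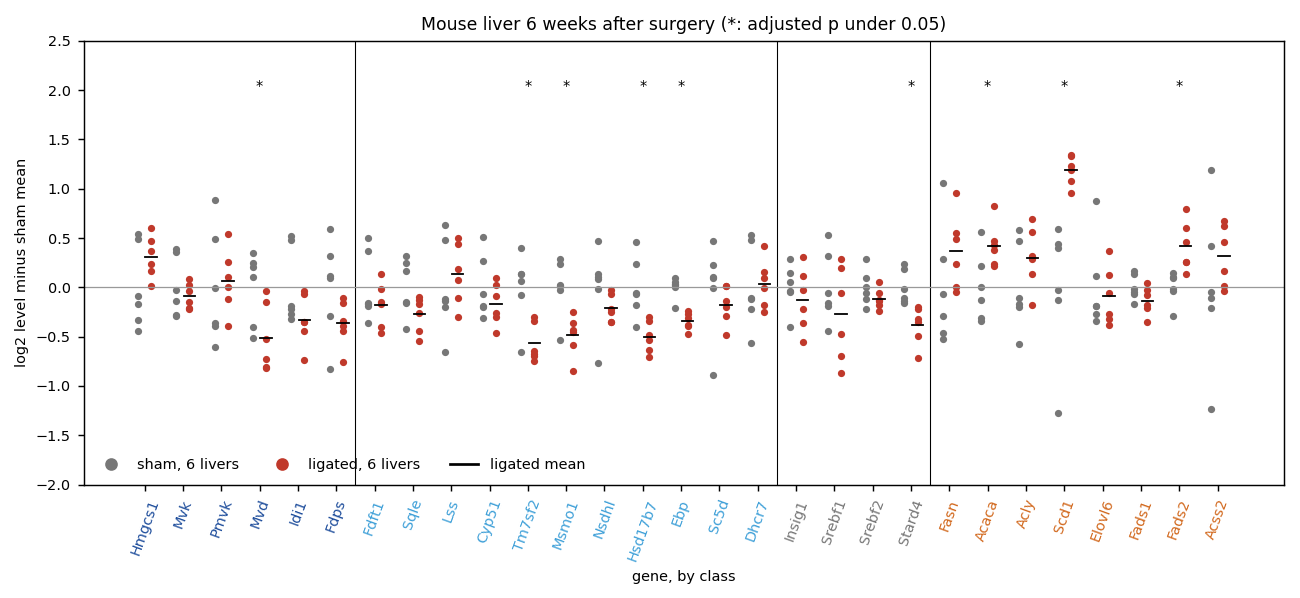
Log2 level of 29 members in each mouse liver minus the mean of the 6 sham livers (grey, sham; red, ligated; black bar, ligated mean), by class from left to right as in the HepaRG plots; a star marks an adjusted p under 0.05. Scd1, Ebp and Stard4 are the called genes whose groups do not overlap.

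Of the related lists in mouse, 5 of 12 genes of SREBP processing and trafficking rose and 2 fell, among them Npc2 (0.78 ± 0.10) and Mbtps2, the site-2 protease of SREBP (0.66 ± 0.10), both higher, and Scap (-0.29 ± 0.07), lower. Of 8 efflux and LXR genes 1 rose, Abcg1 (0.69 ± 0.12). Of 6 further isoprenoid and sterol genes 2 fell. Of 20 further lipogenic genes 7 rose and 5 fell: Scd2, a second desaturase, rose by 3.81 ± 0.31, Elovl7 by 2.74 ± 0.22 from the dim range and Pgd, which yields NADPH, by 1.45 ± 0.15, while Elovl3 fell (-4.37 ± 0.59) and Mlxipl fell too (-1.07 ± 0.13). All of these named genes had groups that did not overlap. The shares of all genes called were 20.5% higher and 21.1% lower, and 2 of 12 and 5 of 20 lower are near that background.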

How the data were processed

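RNA of 12 mouse livers and 24 HepaRG cultures was hybridised to Affymetrix arrays, 1 array per sample. The authors deposited a log2 value for each probe set, computed by robust multi-array averaging (RMA) per the submitters' processing notes; its version and settings are not given in the sources used here. RMA shares probe effects across arrays, so each change in the main fit was taken within 1 probe set. Levels of different probe sets were used to choose the brightest per gene, to set the dim range and to call a probe set dimmer. Marker means also pooled levels over genes. Array medians lay between 5.37 and 5.49 in mouse and 4.24 and 4.38 in HepaRG, and precision is limited by how many arrays there are.

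Probe sets with 1 gene symbol in the platform annotation were kept (34945 in mouse, 41091 in HepaRG), and the brightest per gene was used, for 18193 and 19775 genes. No filter on dim genes was applied. Group means were fitted to all arrays of an organism with limma 3.58.1 in R 4.3.3, with the empirical Bayes variance, and p-values were adjusted by Benjamini-Hochberg over all genes of a comparison, with a threshold of 0.05. Residual degrees of freedom were 10 in mouse and 16 in HepaRG. The code of the fit was run on simulated data with independent noise, which cannot test for related arrays. Figures were drawn with matplotlib 3.10.9 in Python 3.11.15. Where the labels do not say that samples of a group came from separate cultures, p-values measure the spread between these samples only.

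Genes were named by a rule: in each comparison up to 3 called members per direction and class, and a set of key members. Members, lists and tests were chosen with earlier results of these data known. Groups share replicate numbers. Deviations from the group means, correlated over genes, exceeded 0.1 in all 3 same-numbered pairs for control with mix (0.19 to 0.26), control with nefazodone (0.11 to 0.18), mix with cyclosporin A and mix (0.11 to 0.13) and nefazodone with nefazodone and mix (0.13 to 0.29), but not in the other compared groups, nor in mouse (-0.22 to 0.09). Among groups not compared directly, this also held for mix with atazanavir (0.11 to 0.15) and mix with nefazodone (0.12 to 0.20). It held for atazanavir and mix with cyclosporin A (0.25 to 0.32) too. The mean of the hepatocyte markers was highest in replicate 3 in every HepaRG group. EBP and SCD were highest in replicate 3 in every group too, though not every member was. Arrays of the same number may thus be related, and the main fit did not pair them. A replicate block was run as an alternative. The labels do not tie a number to a batch. Promoters came from RefSeq.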

Additional observations from a re-analysis of the deposited data

Results flagged for a closer look

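In 3 cases 1 liver lay far from the other 5 of its group, among 58 groups of 6 livers examined (29 members in ligated and in sham livers). Chance alone gives such a gap in about 5% of independent groups. The members were read in the same livers, so these groups are not independent and that rate cannot judge 3 of 58. Sham 5 had the lowest sham value for most of the 29 members. Ebp stood at 11.99 in sham 5 with the next sham liver at 12.20. Sc5d stood at 11.70 in sham 5, with the next at 12.57. Elovl6 stood at 10.44 in sham 4, above the next at 9.68.

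In 33 cases the change with the bile acid mix differed between cultures with and without a drug, by limma's interaction term with an adjusted p under 0.05. With atazanavir all 13 were positive: FDPS 1.20, HMGCS1 1.13, SCD 1.10, SC5D 1.03, SREBF1 0.79, MVD 0.77, EBP 0.66, ACAT2 0.66, MSMO1 0.61, SQLE 0.59, FASN 0.59, ACACA 0.46 and HSD17B7 0.42. With cyclosporin A 5 were positive, MVD 0.58, HSD17B7 0.58, FDPS 0.51, SC5D 0.45 and STARD4 0.45, and 8 were negative, SREBF1 -1.35, TM7SF2 -1.34, FASN -1.11, ACSS2 -1.06, ACACA -0.99, EBP -0.96, FADS2 -0.59 and PMVK -0.44. With nefazodone all 7 were negative, SREBF1 -1.17, FASN -1.03, LSS -0.94, INSIG1 -0.78, ACSS2 -0.78, IDI1 -0.64 and ACACA -0.53. The 3 interactions share the control and mix cultures, so calls of a member with several drugs are not independent.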

How the results depend on the processing

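Every count of called members in the 20 comparisons stayed within 1.5 times its main value under another quantile normalization, the mean of all probe sets, a filter on the dimmest genes, another variance model, a fit of only the groups compared, a replicate block and leaving out any 1 array. Leaving out 1 array gave 7 to 11 calls for ligation, 11 to 15 for the mix, 10 to 12 for atazanavir, 18 to 23 for cyclosporin A and 15 to 20 for nefazodone, 4 for the mix added to atazanavir, 16 to 22 with cyclosporin A, 22 to 23 with nefazodone, and 10 to 13, 12 to 14 and 5 to 9 for the interactions with atazanavir, cyclosporin A and nefazodone. With the replicate number as a block the counts were 8 for ligation, 15 for the mix, 12, 23 and 20 for the drugs in that order, 4, 22 and 22 for the mix added to them, and 13, 14 and 9 for the interactions. Among named genes the block moved SCD with the mix past the threshold and moved Mvd after ligation (adjusted p = 0.0559) and HSD17B7 between atazanavir and nefazodone with mix (0.0534) off it. A fit of only the groups compared ended calls of MSMO1 with the mix, of HSD17B7, MVK, SCD and SREBF1 with cyclosporin A, of LSS with nefazodone of ELOVL6, FADS2 and LSS for the mix added to cyclosporin A, of the interactions of PMVK, SC5D and STARD4 with cyclosporin A and IDI1 with nefazodone, and, between drugs, of ACACA, ACSS2, FADS2, FASN, INSIG1, MSMO1 and MVK (atazanavir and cyclosporin A), FADS2 and SCD (cyclosporin A and nefazodone), HSD17B7 (atazanavir and nefazodone, with mix) and IDI1 (cyclosporin A and nefazodone, with mix), with adjusted p from 0.0517 to 0.152. Quantile normalization again ended calls of Acaca after ligation, MSMO1 with the mix, HSD17B7 with cyclosporin A, FADS2 for the mix added to cyclosporin A, SCD between nefazodone with mix and mix, FASN (atazanavir and cyclosporin A), FADS2 (cyclosporin A and nefazodone), MVK (atazanavir and cyclosporin A, with mix), IDI1 (cyclosporin A and nefazodone, with mix) and the interactions of FADS2 and SC5D with cyclosporin A (adjusted p 0.0576 to 0.263). Probe sets not used in the main fit were not all in the dim range. Their means were 10.04, 8.60 and 8.29 for SCD and 8.41 for Srebf2. The sign turned only for changes near 0 or with the other probe sets of a gene included. With the mean of all probe sets these were Srebf2 after ligation (0.12), ACACA with the mix (0.0070), with cyclosporin A (0.0146) and with nefazodone (0.0775), SREBF2 with atazanavir (0.0551), SCD with nefazodone (0.51) and between nefazodone with mix and mix (0.0292), FASN between atazanavir and cyclosporin A (-0.0403), and IDI1 between cyclosporin A and nefazodone with mix (0.28, adjusted p = 0.0147). With quantile normalization again, FASN (-0.0709) and SCD (0.0132) turned with nefazodone. Leaving out 1 array gave FASN -0.0017 to 0.12 with the mix, SREBF2 -0.0933 to 0.0282 with atazanavir, and ACACA -0.0894 to 0.0441, FASN -0.0834 to 0.0841 and SCD -0.165 to 0.0264 with nefazodone. The causes were not tested. Of 2514 values with 1 array left out, 2323 kept sign and side of the threshold, and of 2208 under the other alternatives 2118 did.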

Other observations

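Related lipid genes also differed when the mix was added to a drug. Of 18 further lipogenic genes, 1 rose and 2 fell with atazanavir, 0 rose and 11 fell with cyclosporin A and 0 rose and 10 fell with nefazodone, by limma with adjustment over all genes. The shares of all genes called were 8.95% higher and 10.3% lower with atazanavir, 18.4% higher and 18.4% lower with cyclosporin A and 7.55% higher and 7.92% lower with nefazodone, so the counts with atazanavir are near the background. ACACB, the mitochondrial acetyl-CoA carboxylase, changed by -1.52 ± 0.19 and LPIN1, a phosphatidate phosphatase, by -1.03 ± 0.09 with nefazodone. SCD5, a second human desaturase, changed by -1.58 ± 0.13 with cyclosporin A. Of 10 efflux and LXR genes 3 rose and 0 fell with atazanavir, among them MYLIP, the ligase that degrades the LDL receptor (0.93 ± 0.14), while 1 rose and 2 fell with cyclosporin A and 0 rose and 3 fell with nefazodone. Of 12 SREBP processing and trafficking genes 3 rose and 0 fell with atazanavir, 2 rose and 5 fell with cyclosporin A and 2 rose and 2 fell with nefazodone. With cyclosporin A, 2 of 10 efflux and LXR genes lower and 2 of 12 SREBP processing genes higher are near the background. The 1 of 10 efflux and LXR genes higher is below it. TMEM97 fell with cyclosporin A (-1.07 ± 0.11) and with nefazodone (-0.89 ± 0.11), and NPC1 rose with cyclosporin A (1.05 ± 0.12).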
